A study of Homo sapiens with 6 samples.

Results

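Mitochondrial ribosomal proteins build the ribosome inside mitochondria. The genes described here are those whose platform symbol starts with MRPL, for the large subunit, or MRPS, for the small subunit, followed by a digit, and that had a probe set annotated to no other gene. There were 77 such genes of 18239 genes measured, read by 165 probe sets: 48 protein-coding MRPL genes, 28 protein-coding MRPS genes and the antisense transcript MRPL20-AS1, which is given apart from the 76 protein-coding genes. MV4;11 cells, an established human leukemia line that carries an MLL (KMT2A) fusion gene, were kept either with 4 µM MI-389, an inhibitor of the binding of menin to MLL, or with the solvent DMSO. Both groups held 0.25% DMSO, the culture lasted 6 days, medium and compound were renewed on day 3, and RNA from 3 samples a group was read on Affymetrix arrays labelled from the 3-prime end. MV4;11 is 1 line, so the comparison covers the response of that line. The samples are called biological replicates, but how the cultures were kept apart is not stated, so the p-values cover only the spread among these 6 samples, part of which may be technical.

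The mitochondrial ribosome makes the few membrane proteins of the respiratory chain that the mitochondrial genome encodes. Its ribosomal RNA comes from that genome, while its proteins are encoded in the nucleus, made in the cytosol and imported. It descends from a bacterial ribosome: some of its proteins have bacterial counterparts, and others exist in mitochondria alone. Leukemia cells of the myeloid lineage are known to draw on mitochondrial respiration.

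Promoters are shown first for 5 of these genes, chosen after their values were seen: the 3 largest falls and the 2 largest rises among the individually described genes whose window held letters of the ETS core or the YY1 motif. Nuclear genes of mitochondrial proteins are known for such motifs, bound by the ETS factor GABP and by YY1. The sequences are from RefSeq on GRCh38.p14, run 5-prime to 3-prime on the strand of the gene, and reach from 250 bases before to 30 bases after the annotated start. Capitals mark the ETS core CCGGAAG or the YY1 motif, searched on either strand, so CTTCCGG is the ETS core on the other strand, and the capitals of MRPS30 spell the YY1 letters searched. No capitals of one motif overlap those of another. The windows are chr5:44808697-44808976 (plus strand) for MRPS30, chr17:75904855-75905134 (minus strand) for MRPL38, chr17:75012420-75012699 (plus strand) for MRPL58, chr11:59810749-59811028 (minus strand) for MRPL16 and chr16:370509-370788 (minus strand) for MRPL28.
MRPS30: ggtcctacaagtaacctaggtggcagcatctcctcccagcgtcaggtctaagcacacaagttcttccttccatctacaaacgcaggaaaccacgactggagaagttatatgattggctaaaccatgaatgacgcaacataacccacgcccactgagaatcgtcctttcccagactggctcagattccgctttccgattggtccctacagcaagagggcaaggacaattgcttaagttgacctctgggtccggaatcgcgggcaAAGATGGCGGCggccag
MRPL38: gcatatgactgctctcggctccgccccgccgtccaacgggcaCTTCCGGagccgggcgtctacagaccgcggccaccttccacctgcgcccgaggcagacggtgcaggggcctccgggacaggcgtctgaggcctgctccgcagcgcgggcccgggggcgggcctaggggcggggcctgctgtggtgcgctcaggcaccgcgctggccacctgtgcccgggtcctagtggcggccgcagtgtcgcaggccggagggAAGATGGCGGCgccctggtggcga
MRPL58: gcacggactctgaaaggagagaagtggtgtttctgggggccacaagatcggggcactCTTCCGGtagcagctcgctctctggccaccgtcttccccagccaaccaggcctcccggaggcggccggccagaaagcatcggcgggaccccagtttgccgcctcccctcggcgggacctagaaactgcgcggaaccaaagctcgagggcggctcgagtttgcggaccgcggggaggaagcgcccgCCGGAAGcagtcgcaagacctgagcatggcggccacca
MRPL16: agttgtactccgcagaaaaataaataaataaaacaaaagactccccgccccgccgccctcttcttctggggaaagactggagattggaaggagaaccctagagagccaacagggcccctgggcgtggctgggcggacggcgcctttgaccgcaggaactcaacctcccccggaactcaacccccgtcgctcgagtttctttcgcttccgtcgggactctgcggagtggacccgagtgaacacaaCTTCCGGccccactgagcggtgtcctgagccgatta
MRPL28: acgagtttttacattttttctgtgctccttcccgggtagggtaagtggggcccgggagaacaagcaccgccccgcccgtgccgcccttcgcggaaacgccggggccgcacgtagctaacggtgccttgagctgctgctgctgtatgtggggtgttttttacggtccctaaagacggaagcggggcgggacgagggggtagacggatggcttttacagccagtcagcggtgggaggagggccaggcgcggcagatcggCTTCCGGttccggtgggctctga
MRPS30 and MRPL38 hold the YY1 letters just inside the transcript, at base 14 and base 7 counted from the annotated start as base 1. MRPL38 holds the ETS letters as well, at base -208. In MRPL58, lower with MI-389, the ETS letters stand at -193 and -8. In MRPL16 and MRPL28, both higher with MI-389, they stand at -6 and 8.

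Values are log2 levels as deposited, 1 per probe set and array, and a gene is read from its brightest probe set, by the mean over all 6 arrays. A difference is the MI-389 mean minus the DMSO mean, and rose or fell means an adjusted p under 0.05 in limma, with Benjamini-Hochberg adjustment over all 18239 genes. Array medians lay between 4.47 and 4.49. As a guide to background, the nonspecific control probe sets, without the one richest in GC, reached 5.49, and all 77 genes had means above it, from 6.46 to 11.6. The leukocyte gene PTPRC had a mean of 9.23 with MI-389 and 8.89 with DMSO, the myeloid gene LYZ 13.1 and 11.1, the receptor gene FLT3 9.59 and 11.0, and CD4 6.56 and 6.62. CD3E, HBB, EPCAM and COL1A1, markers of other cell types, were under 5.49 in both groups. SPI1 and MPO, listed as myeloid markers, were also under 5.49. PECAM1, listed for endothelium but also made by myeloid cells, had 9.99 with MI-389 and 9.55 with DMSO. The 9 hybridisation spike-in probe sets were 0.25 higher on the MI-389 arrays, and the 3-prime minus 5-prime signal was higher there by 0.14 for GAPDH and by 0.34 for ACTB. The part of these offsets in the differences was not tested, beyond the centring on the spike-ins given below. In bulk RNA, fewer cells of a kind and less transcript per cell cannot be told apart.

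Of the 76 protein-coding genes, 27 fell with MI-389, 9 rose and 40 were not called. The 27 that fell are 35.5% of them, beside 15.7% of all genes called lower and 27.4% of the 8668 genes at or above the nonspecific level. The 9 that rose are 11.8%, beside 18.4% of all genes called higher and 30.4% of those 8668. In either direction 47.4% of the protein-coding genes were called, beside 34.1% of all genes and 57.8% of the 8668. The changes were small: 0 of the 76 reached 2-fold, the median difference was -0.08, and the median over all genes was 0.018. The median absolute difference was 0.17 for these genes and 0.24 for the genes at or above the nonspecific level. The MI-389 arrays all lay below the DMSO arrays for 35 of the 76 genes, beside 20.5% of all genes, and all above them for 14, beside 24.9% of all genes. All genes include 9571 below the nonspecific level, and for this count no share was taken over the brighter genes alone. At an unadjusted p under 0.05 there were 40 genes in either direction. The share of all genes at that cut was not taken, so this count has no background beside it. Of the 40 genes not called, 34 had a 95% interval within 0.25 of 0 on both sides. The split depends on the scale: centring on the spike-ins lowers every gene by 0.25, and then 2 rose and 60 fell. Over all 18239 genes 1397 then rose and 11056 fell, 68.3% in all, with a median of -0.23. Without DMSO replicate 2 the number that rose was 5 and the number that fell 22, with 28.6% of all genes called.

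**Figure D1:**
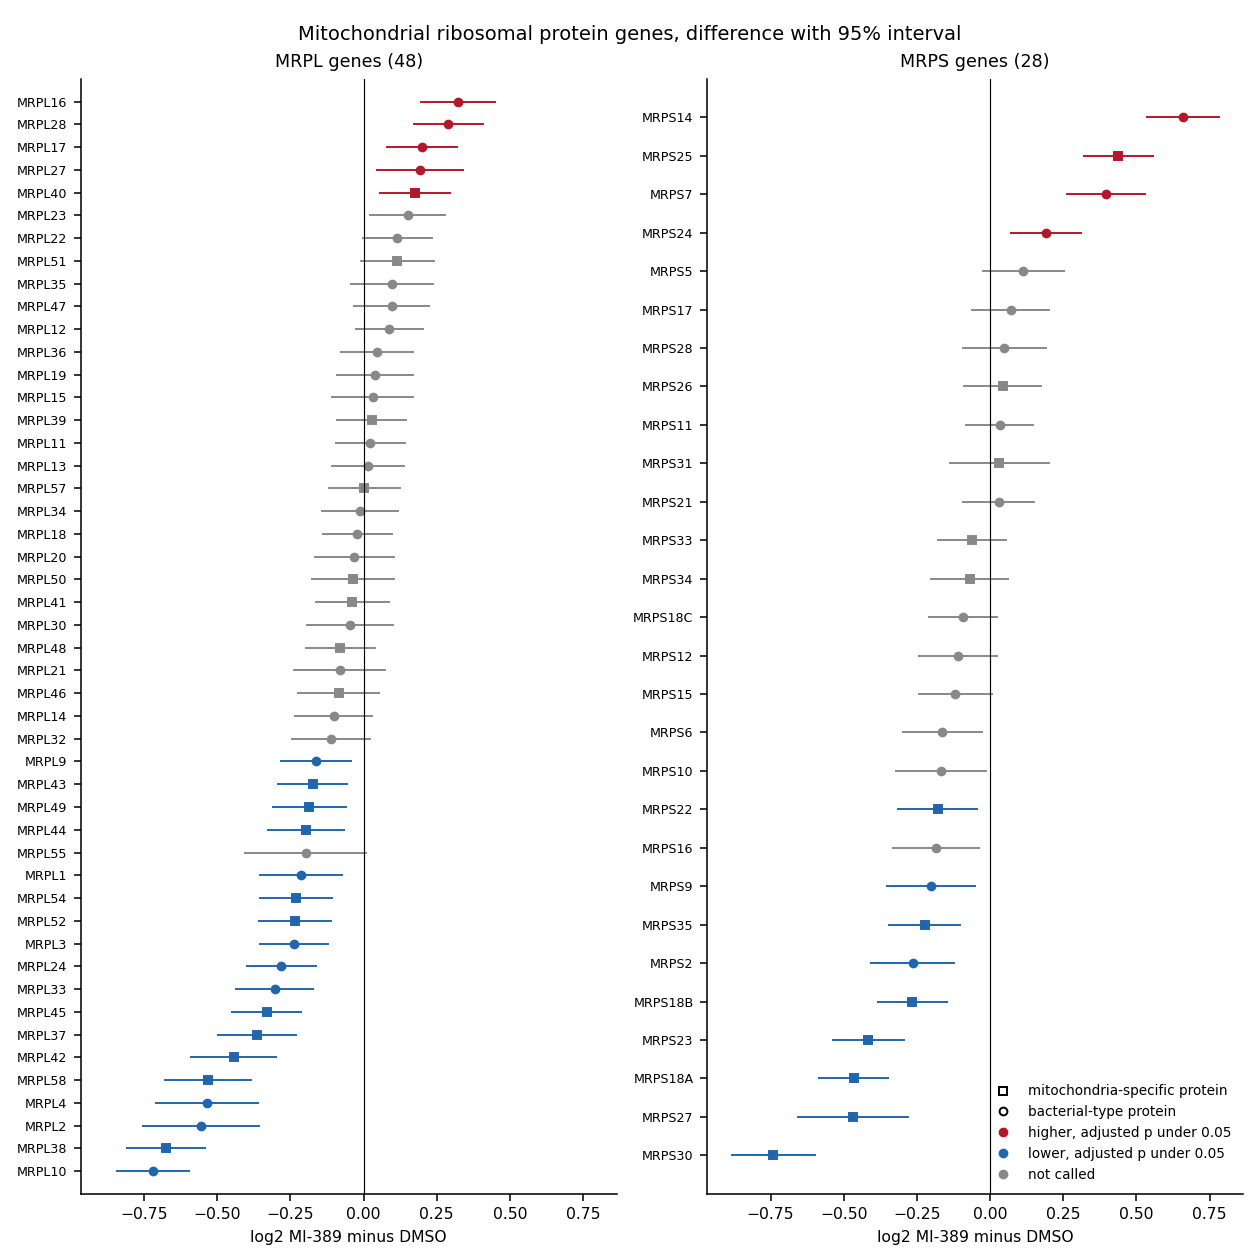
Differences between MI-389 and DMSO (x axis, log2, bars are 95% intervals) for the 48 MRPL genes and the 28 MRPS genes, sorted by size, with squares for mitochondria-specific proteins and circles for proteins of bacterial type. Points run from -0.72 to 0.32 for MRPL genes and from -0.74 to 0.66 for MRPS genes, with 27 blue points (lower) and 9 red points (higher).

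The protein with the largest fall was MRPS30, a mitochondria-specific protein that carries a small-subunit symbol but sits on the large subunit in published structures, where it is called mL65. Its levels were 8.21, 8.41 and 8.26 on the MI-389 arrays, against 9.05, 9.01 and 9.04 on the DMSO arrays. The groups were far apart, and MRPS30 was 1.67-fold lower with MI-389 (difference -0.74, SE 0.06, adjusted p = 9.39e-06). MRPL10 anchors the stalk that recruits translation factors to the large subunit. It had 7.67, 7.57 and 7.66 with MI-389, against 8.37, 8.37 and 8.31 with DMSO, and was 1.65-fold lower (difference -0.72, SE 0.06, adjusted p = 4.12e-06). MRPL38, a part of the central protuberance at the top of the large subunit, had 7.41, 7.57 and 7.51 with MI-389, against 8.15, 8.17 and 8.18 with DMSO. The DMSO arrays lay close together for this gene, and it was 1.60-fold lower with MI-389 (difference -0.67, SE 0.06, adjusted p = 1.14e-05).

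Proteins at the catalytic core and the exit tunnel were also among the 10 largest falls. MRPL2, which lies beside the site of peptide bond formation, had 6.33, 6.27 and 5.97 with MI-389, against 6.77, 6.72 and 6.73 with DMSO (difference -0.55, SE 0.09, adjusted p = 7.04e-04). The third MI-389 array was the lowest, and the groups did not overlap. MRPL4 belongs to a family that lines the exit tunnel. Its levels were 8.27, 8.21 and 8.17 with MI-389, against 8.90, 8.75 and 8.60 with DMSO, a wide spread among the DMSO arrays (difference -0.53, SE 0.08, adjusted p = 3.86e-04). MRPL58, a peptidyl-tRNA hydrolase that frees stalled ribosomes, had 8.35, 8.45 and 8.49 with MI-389, against 9.04, 8.87 and 8.96 with DMSO (difference -0.53, SE 0.07, adjusted p = 1.26e-04). MRPL42, a mitochondria-specific large-subunit protein, had 7.87, 7.94 and 8.06 with MI-389, against 8.40, 8.45 and 8.35 with DMSO, so that the groups stood apart there too (difference -0.44, adjusted p = 4.10e-04).

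Of the small-subunit symbols, MRPS27, MRPS18A and MRPS23 completed the 10 largest falls. MRPS27 is a pentatricopeptide repeat protein, of a family that binds RNA. It had 7.71, 7.98 and 7.79 with MI-389, against 8.42, 8.28 and 8.19 with DMSO (difference -0.47, SE 0.08, adjusted p = 0.00153). The spread within both groups was wide for MRPS27, but they did not overlap. The mitochondria-specific MRPS23 showed the opposite: 9.42, 9.42 and 9.45 with MI-389, against 9.90, 9.84 and 9.80 with DMSO, with little spread (difference -0.42, SE 0.05, adjusted p = 1.68e-04).

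The paralogs MRPS18A, MRPS18B and MRPS18C all descend from the bacterial small-subunit protein S18, but structures place MRPS18A on the large subunit. MRPS18A had 7.50, 7.54 and 7.50 with MI-389, against 8.01, 7.95 and 7.96 with DMSO (difference -0.47, SE 0.05, adjusted p = 6.72e-05). MRPS18B had 8.31, 8.25 and 8.24 with MI-389, against 8.52, 8.54 and 8.52 with DMSO (difference -0.27, SE 0.05, adjusted p = 0.00278). Both fell, with no overlap between groups. MRPS18C, which holds the place of the bacterial protein, had 9.51, 9.49 and 9.46 with MI-389, against 9.57, 9.57 and 9.60 with DMSO, and was not called (difference -0.09, 95% interval -0.21 to 0.02, adjusted p = 0.214). The differences between the paralogs were not tested.

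The largest rise was that of MRPS14, a protein of bacterial type in the head of the small subunit. It had 10.13, 10.07 and 10.07 with MI-389, against 9.42, 9.39 and 9.48 with DMSO. It was 1.58-fold higher with MI-389, with little spread within either group (difference 0.66, SE 0.05, adjusted p = 7.04e-06). MRPS25, a mitochondria-specific small-subunit protein, had 8.60, 8.65 and 8.59 with MI-389, against 8.14, 8.19 and 8.19 with DMSO (difference 0.44, SE 0.05, adjusted p = 1.11e-04). MRPS7, which contacts transfer RNA near the exit site, had 7.94, 7.80 and 7.90 with MI-389, against 7.50, 7.43 and 7.52 with DMSO (difference 0.40, SE 0.06, adjusted p = 4.62e-04). In these 3 small-subunit genes every MI-389 array lay above every DMSO array by a wide margin.

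The rises among large-subunit genes were smaller. MRPL16, which lies near the transfer RNA that brings in the next amino acid, had 9.51, 9.50 and 9.56 with MI-389, against 9.20, 9.14 and 9.27 with DMSO (difference 0.32, adjusted p = 0.00131). MRPL28, a large-subunit protein of bacterial type, had 10.27, 10.28 and 10.25 with MI-389, against 9.96, 9.96 and 10.02 with DMSO (difference 0.29, adjusted p = 0.00161). Both kept their groups apart. The other 4 rises were small. MRPL17, of bacterial type, had 9.47, 9.43 and 9.47 with MI-389, against 9.26, 9.21 and 9.30 with DMSO (difference 0.20, adjusted p = 0.0154). MRPS24, in the messenger entry channel, had 10.58, 10.57 and 10.57 with MI-389, against 10.33, 10.38 and 10.43 with DMSO (difference 0.19, adjusted p = 0.0184). MRPL40, in the central protuberance, had 8.98, 8.91 and 8.97 with MI-389, against 8.79, 8.74 and 8.79 with DMSO (difference 0.18, adjusted p = 0.0282). The groups of all 3 stood apart by less than those of MRPL16 and MRPL28. MRPL27, which reaches towards the catalytic centre, had 9.12, 9.06 and 8.91 with MI-389, against 8.80, 8.88 and 8.83 with DMSO (difference 0.19, adjusted p = 0.0469). It came closest to overlapping and lost its call without any 1 of 5 of the 6 arrays. After centring on the spike-ins, MRPL17, MRPL27, MRPS24 and MRPL40 had differences under 0 and were not called.

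**Figure D2:**
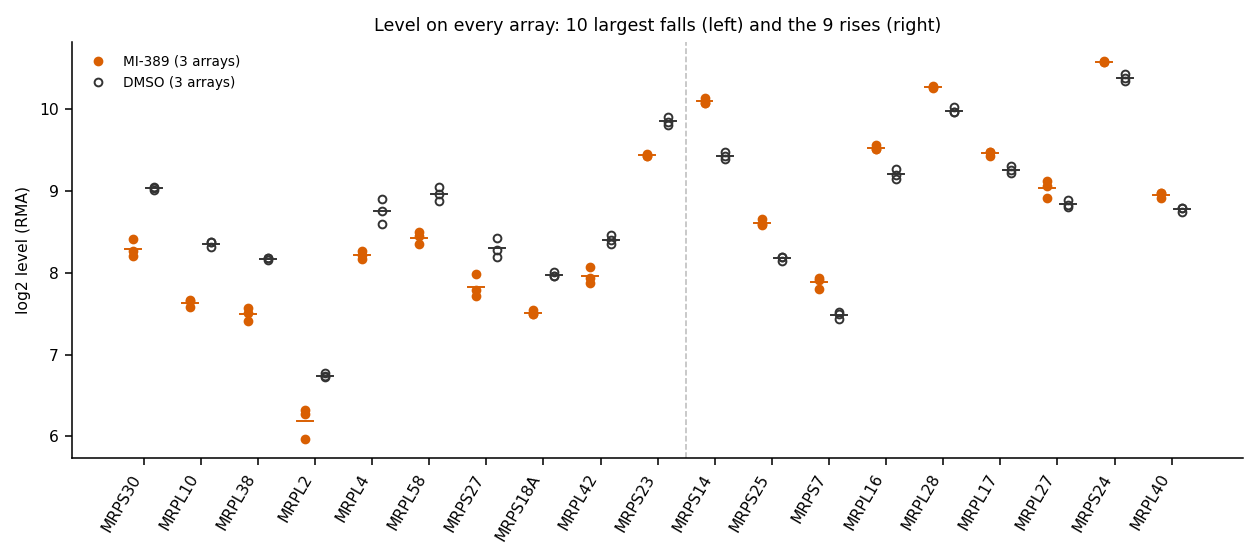
Log2 level (y axis) on each of the 3 MI-389 arrays (filled) and 3 DMSO arrays (open), with a line at each mean, for the 10 largest falls and the 9 rises. No gene drawn has overlapping groups, which was a condition of their choice. The widest gap between group means is that of MRPS30, at 8.29 ± 0.10 with MI-389 and 9.03 ± 0.02 with DMSO (SD, n = 3 each).

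At the stalk of the large subunit, where elongation factors dock, MRPL10, its base, fell as given above. MRPL12, which forms the flexible arm and is also known to bind the mitochondrial RNA polymerase, had 8.76, 8.77 and 8.81 with MI-389, against 8.69, 8.69 and 8.68 with DMSO. Its arrays did not overlap, but the difference of 0.09 was not called (95% interval -0.03 to 0.20, adjusted p = 0.233). MRPL11, beside the stalk base, had 8.87 ± 0.04 with MI-389 and 8.84 ± 0.01 with DMSO (SD, n = 3 each; difference 0.02, 95% interval -0.10 to 0.14, adjusted p = 0.795).

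Of 3 proteins around the mouth of the exit tunnel, 2 fell. MRPL45, which ties the ribosome to the inner membrane, had 8.74, 8.80 and 8.77 with MI-389, against 9.13, 9.07 and 9.09 with DMSO, and fell (difference -0.33, SE 0.05, adjusted p = 7.18e-04). MRPL24 had 9.92, 9.91 and 9.92 with MI-389, against 10.17, 10.24 and 10.17 with DMSO, and fell (difference -0.28, SE 0.05, adjusted p = 0.00199). MRPL23 had 10.06, 9.93 and 9.97 with MI-389, against 9.81, 9.83 and 9.87 with DMSO. Its groups did not overlap, and the difference of 0.15 missed the threshold (95% interval 0.02 to 0.28, adjusted p = 0.0716). MRPS12, at the decoding centre of the small subunit, had 9.50 ± 0.03 with MI-389 and 9.61 ± 0.08 with DMSO (SD, n = 3 each) and was not called (difference -0.11, 95% interval -0.24 to 0.02, adjusted p = 0.199).

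The other 17 falls ran from MRPL37 at -0.36 to MRPL9 at -0.16, among them MRPL45, MRPL24 and MRPS18B, already given. They include MRPL33 (-0.30), MRPS2 (-0.26), MRPL3 (-0.24) and MRPL1 (-0.21), all of bacterial type, the last in the mobile L1 stalk. They also include MRPL37, MRPL52 (-0.23), MRPL54 (-0.23), MRPS35 (-0.22), MRPL44 (-0.20), MRPL49 (-0.18), MRPS22 (-0.18) and MRPL43 (-0.17), all specific to mitochondria. MRPS22, MRPS9 (-0.20) and MRPL9 stood closest to the threshold, at adjusted p = 0.0447, 0.042 and 0.0418. In the limma fit over all probe sets, the same probe sets were not called (adjusted p = 0.06, 0.0548 and 0.0589). Nor was that of MRPL27, one of the rises (adjusted p = 0.0611). The antisense transcript MRPL20-AS1 had 7.35, 7.44 and 7.21 with MI-389, against 7.62, 7.56 and 7.67 with DMSO, and fell (difference -0.28, adjusted p = 0.00908). MRPL20 itself differed by -0.03 and was not called (adjusted p = 0.751).

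Large and small subunit genes, taken by symbol, had like shares of calls. Of 48 MRPL genes 5 rose and 18 fell, with a median difference of -0.06, and of 28 MRPS genes 4 rose and 9 fell, with a median of -0.10. The 37.5% and 32.1% that fell stand beside 15.7% of all genes and 27.4% of those at or above the nonspecific level. The 10.4% and 14.3% that rose stand beside 18.4% and 30.4%. The mean level of the MRPL genes was 9.20, 9.19 and 9.20 on the MI-389 arrays, against 9.31, 9.30 and 9.31 on the DMSO arrays. That of the MRPS genes was 8.78, 8.81 and 8.79 with MI-389, against 8.87, 8.86 and 8.88 with DMSO. For both subunits the MI-389 arrays lay below the DMSO arrays. The median of the large minus that of the small subunit was 0.0386 by symbol. It turned to -0.0943 when probe sets without unspecific suffixes were preferred and to -0.0315 when the probe sets of a gene were averaged. With MRPS30 and MRPS18A counted with the large subunit, as in structures, the difference was 0.000688: 50 large-subunit genes had 5 rises, 20 falls and a median of -0.08, and 26 small-subunit genes 4 rises, 7 falls and a median of -0.08. The shares of falls were then less alike, 40% for the large and 26.9% for the small subunit, the latter near the 27.4% given above. The shares of rises were 10% and 15.4%.

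A split by class in the published nomenclature, added after the differences had been seen, gave medians further apart than the subunits did. That nomenclature names MRPS18A and MRPS18B as mitochondria-specific. Both fell and are counted so here, although they descend from a bacterial protein. Of 30 mitochondria-specific proteins 17 fell and 2 rose (MRPS25 and MRPL40), with a median difference of -0.18. Of 46 proteins of bacterial type 10 fell and 7 rose, with a median of -0.02. The 56.7% and 21.7% that fell stand beside 15.7% of all genes and 27.4% of those at or above the nonspecific level. For falls, the share of the bacterial-type proteins thus lies between these background shares. The 6.67% and 15.2% that rose stand beside 18.4% and 30.4%, and both lie below them. In either direction 63.3% and 37% were called, beside 34.1% and 57.8%. The same order was seen on each subunit of the structures: a median of -0.19 for 20 mitochondria-specific and -0.02 for 30 bacterial-type large-subunit proteins, and of -0.12 for 10 and -0.03 for 16 on the small subunit. The mitochondria-specific group also had 60% and 50% of its genes lower on the large and the small subunit, against 26.7% and 12.5% of the bacterial-type group. These are descriptions of a split chosen on these data, with no test. The difference of the class medians, -0.165, ranged from -0.209 to -0.135 over the alternatives run.

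**Figure D3:**
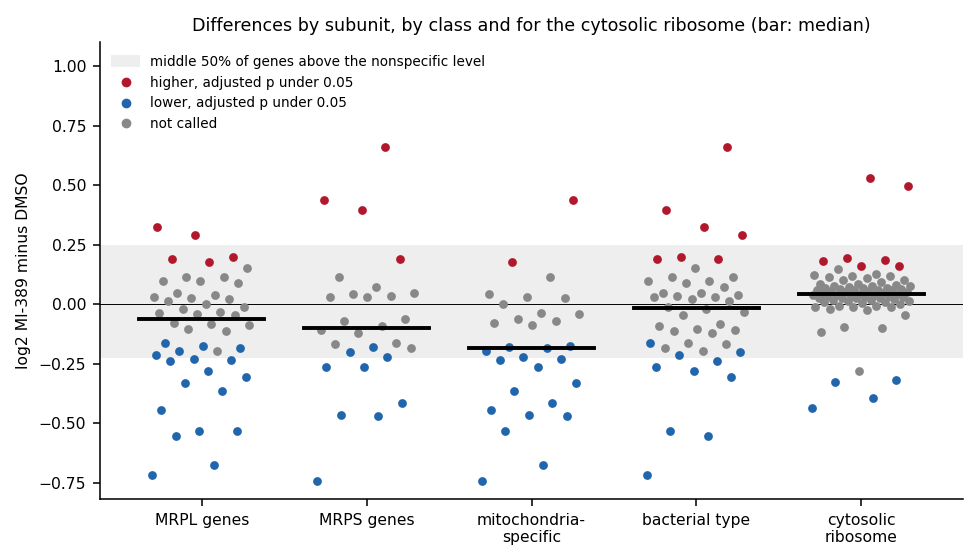
Differences between MI-389 and DMSO (y axis, log2) for each gene, by subunit symbol, by class of protein and for the cytosolic ribosome, with bars at the medians and grey shading over the middle 50% of the genes at or above the nonspecific level (-0.22 to 0.25). The median bars stand at -0.06, -0.10, -0.18, -0.02 and 0.04 from left to right.

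The proteins of the cytosolic ribosome, which makes all nuclear-encoded proteins, were set beside these genes. The 78 genes taken by RPL and RPS symbols include a few ribosomal protein-like genes and the binding protein gene RPS19BP1. Of the 78, 7 rose and 4 fell, 14.1% in all, beside 34.1% of all genes and 57.8% of those at or above the nonspecific level. The 78 had a median difference of 0.04 and a median absolute difference of 0.06, while the 76 mitochondrial genes had -0.08 and 0.17. The mean level of the 78 was 12.02, 12.03 and 12.02 with MI-389, against 12.00, 11.98 and 11.98 with DMSO. Levels this high may be compressed on arrays, and the part of this in the small differences was not tested. The largest of them were the rises of RPL22L1 (0.53), a paralog of RPL22, and RPL27A (0.49), the last with both groups under 5.49. Next in size was the fall of RPL39L (-0.43), a paralog of RPL39. The other falls were those of RPL7L1 (-0.39), RPS19BP1 (-0.33) and RPL35A (-0.32).

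Genes with several probe sets show how far the choice of probe set matters. Of the 165 probe sets, 54 were lower and 16 higher, 32.7% and 9.7%, beside 14% lower and 14% higher of all 49293 probe sets. No share was taken over probe sets at or above the nonspecific level. For 46 genes there were several, and in 29 of these all had the same sign. The 5 probe sets of MRPL52 were all called lower, between -0.30 and -0.23, and so were the 3 of MRPL33, between -0.59 and -0.30. For MRPS14 the probe sets at 0.66 and 0.61 were called higher, and the third, at 0.12 and with a mean of 4.20, was not. In MRPS25 the probe set used gave 0.44, a second was called at 0.24, and the other 3 lay between 0.04 and 0.21 and were not called.

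Probe sets of 3 genes were called in opposite directions. MRPL4, given above at -0.53, had another at -0.42 (adjusted p = 0.00118), but one at 0.25 called higher, with 7.66 with MI-389 and 7.41 with DMSO (adjusted p = 0.00727). The probe set of MRPL17 at -0.37 had means of 4.95 with MI-389 and 5.32 with DMSO, both under 5.49 (adjusted p = 0.00108), while the one used was called higher at 0.20. MRPL35, not called on its brightest probe set (0.10), had one higher at 0.30 (adjusted p = 0.0127) and one lower at -0.23 (adjusted p = 0.0422). Which transcripts these probe sets read was not analysed here. Of the genes not called, 6 had another probe set called lower and 4 one called higher. Among them, MRPL57 differed by 0.00 on the probe set used and by 0.06 on another, not called, with a mean of 8.05. On its dimmer probe sets, with means of 6.00 and 5.98, it differed by -0.59 and -0.50. MRPL30 differed by -0.05 on the probe set used but by -0.46 and -0.33 on others.

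**Figure D4:**
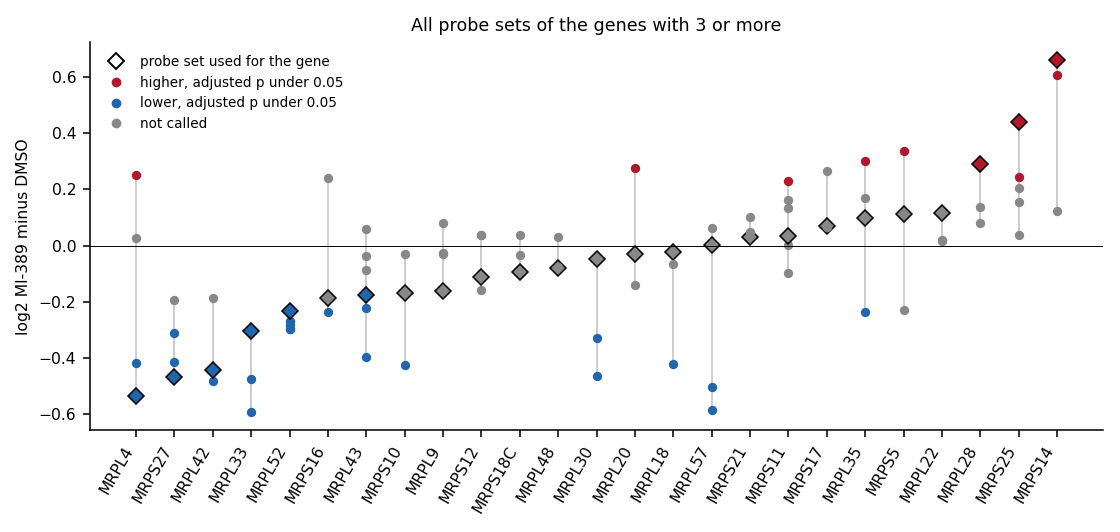
Differences between MI-389 and DMSO (y axis, log2) of every probe set of the genes with 3 or more, with diamonds for the probe set that represents the gene. MRPL4 runs from -0.53 to 0.25, whereas all 5 points of MRPL52 lie between -0.30 and -0.23.

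RefSeq promoter windows ran from 250 bases before to 50 after the start, and a gene was counted if any of its windows held the letters. Of 69 genes with a window, MRPL20-AS1 among them, 30 held the ETS core CCGGAAG on either strand, 43.5% beside 12.2% of 27305 genes. Those 27305 are all genes with a window and include noncoding genes and genes without a value here. The shares are therefore not of like sets, and no share was taken over expressed protein-coding genes alone. The YY1 letters printed in capitals for MRPS30 were in 10 genes, 14.5% beside 1.04%, and the NRF1 core GCATGCGC in 6, 8.7% beside 3.68%. The E-box CACGTG was found in 9 genes (13% beside 8.77%), TATAAA in 3 (4.35% beside 14%), the cyclic AMP response element TGACGTCA in 1 (1.45% beside 2.25%) and the amino acid response element TGATGNAA in 1 (1.45% beside 4.46%). By direction, the ETS core was in 11 of 26 genes that fell, MRPL20-AS1 included, 4 of 9 that rose and 15 of 34 not called. YY1 letters were in 4, 1 and 5 of these. MRPL38, MRPS18A and MRPS10 held both ETS and YY1 letters. None of the ETS, NRF1 and YY1 letters were found in 30 genes. These include MRPS14, MRPS25 and MRPS7, the largest rises, and also MRPL4, MRPS27 and MRPL42, of the 10 largest falls. A match is a description of letters in the window and does not show that a factor binds there.

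Other proteins of the mitochondrial ribosome carry other symbols. Of 4 with a value, DAP3, a GTP-binding protein of the small subunit, fell: it had 9.32, 9.45 and 9.37 with MI-389, against 10.09, 10.11 and 10.00 with DMSO (difference -0.69, SE 0.06, adjusted p = 1.06e-05). The size of this fall lies between those of MRPL10 and MRPL38. GADD45GIP1 (-0.11), CHCHD1 (0.08) and PTCD3 (0.17, adjusted p = 0.0561) were not called. AURKAIP1, MRPS36 and MRPL53 have no value of their own here.

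Of 26 factors that assemble the mitochondrial ribosome 11 fell and 4 rose, with a median of -0.12. The 57.7% called stand beside 57.8% of the genes at or above the nonspecific level, and the 42.3% lower beside 27.4%. TFB1M, which methylates the small ribosomal RNA, had 6.77, 7.18 and 6.78 with MI-389, against 7.42, 7.41 and 7.41 with DMSO (difference -0.50, adjusted p = 0.00279). RBFA (-0.47) and NOA1 (-0.43), both small-subunit assembly factors, also fell. The rises were led by the RNA methyltransferase TRMT61B (0.46), by MTERF4 (0.32), which works with the methyltransferase NSUN4, and by MRM2 (0.26), which methylates the large ribosomal RNA. Of 18 translation factors 6 fell and 4 rose, 55.6% in all, close to that 57.8%, with a median of -0.09. The recycling factor MRRF fell by 0.59, the RNA-binding protein LRPPRC by 0.54 and the elongation factor GFM1 by 0.36. MTFMT, which formylates the initiator transfer RNA, rose by 0.52, with both groups under 5.49. COA3 (0.24) and the initiation factor MTIF3 (0.23) rose as well.

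Among 16 genes of mitochondrial genome expression and replication 5 rose and 3 fell, 50% in all, with a median of 0.10. The genes at or above the nonspecific level had 57.8% called, 30.4% higher and 27.4% lower, and these 16 had 31.2% and 18.8%. TFB2M, the transcription initiation factor, had 8.43, 8.59 and 8.51 with MI-389, against 9.10, 9.14 and 9.13 with DMSO, and fell (difference -0.61, SE 0.06, adjusted p = 2.40e-05). POLRMT, the mitochondrial RNA polymerase, fell by 0.42, and POLG2, a subunit of the DNA polymerase, by 0.26. MTERF2 (1.09), MTERF1 (0.38) and the elongation factor TEFM (0.36) rose. MTERF2 had 5.81, 5.85 and 5.48 with MI-389, against 4.77, 4.72 and 4.37 with DMSO, where it lay under 5.49. Of 14 regulators of mitochondrial biogenesis 3 rose and 4 fell, also 50% in all, with a median of 0.05. The subunits of GABP differed in sign: GABPB1 fell by 0.49 and GABPA, its DNA-binding partner, rose by 0.33. ESRRA (-0.41) and NRF1 (-0.28) fell, CREB1 (0.53) and HCFC1 (0.17) rose, and MYC was not called (-0.06, adjusted p = 0.497).

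**Figure D5:**
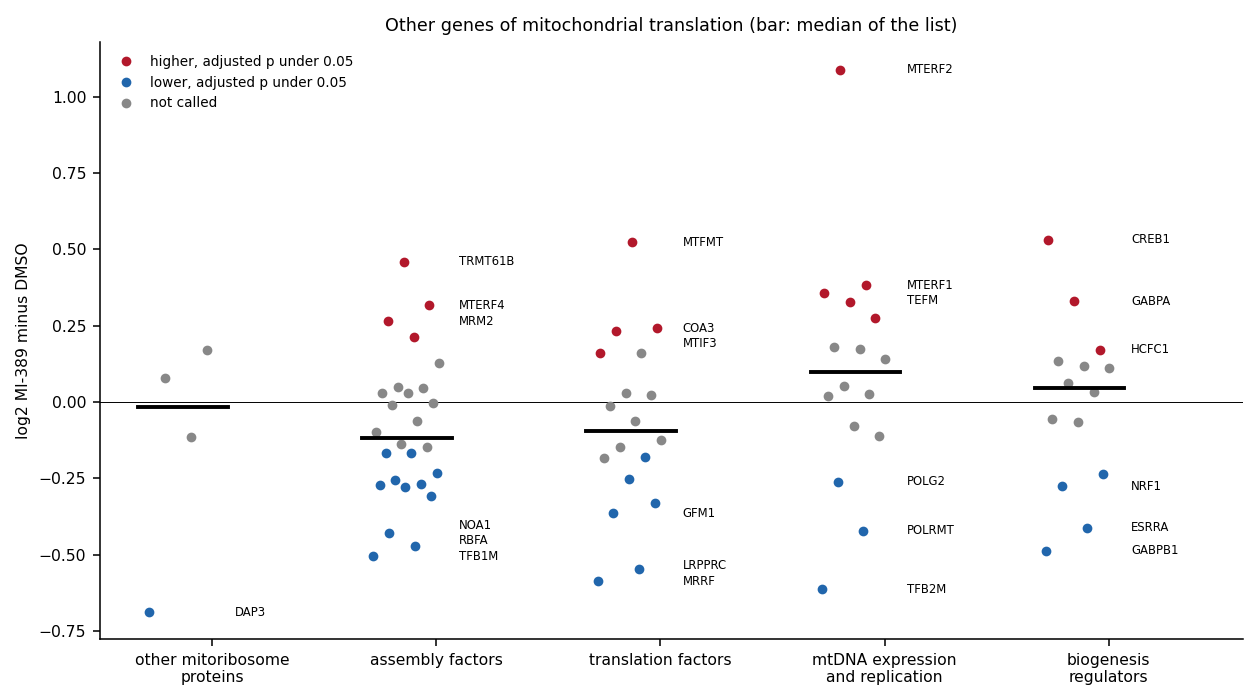
Differences between MI-389 and DMSO (y axis, log2) for the other genes of mitochondrial translation, by list, with bars at the medians (-0.02, -0.12, -0.09, 0.10 and 0.05 from left to right) and up to 3 called genes named in each direction. DAP3 (-0.69), TFB2M (-0.61) and MRRF (-0.59) are the lowest points and MTERF2 (1.09) is the highest.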

How the data were processed

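Gene expression of MV4;11 cells was read on 6 arrays. The deposited values are on the log2 scale, and RMA and limma are named per the submitters' processing notes, with settings not given in the sources used here. No detection calls were used, and 3 arrays a group limit the precision. Of 49386 probe sets, 93 controls were left out of the tests. Gene names came from the platform annotation, updated through RefSeq gene IDs. Each gene was represented by the one-gene probe set with the highest mean. MI-389 and DMSO were compared in R 4.3.3 by the eBayes test of limma 3.58.1 (two-sided, no covariates, Benjamini-Hochberg over all genes or all probe sets, threshold 0.05). The test was run on simulated data first. Genes described one by one are the 10 largest falls and the up to 10 largest rises past the threshold with groups that do not overlap, those with a listed role, and those with probe sets called in opposite directions, and up to 3 a direction of each pathway list. Others are given by difference only. The genes and lists were chosen with earlier results of these data known. MRPL57 and MRPL58, written on the list of other ribosomal proteins, are counted by symbol. Alternatives were other scalings, filters, variance models, probe set rules, thresholds, a replicate block and leaving out each array. Classes and subunits in structures follow the published nomenclature.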

Additional observations from a re-analysis of the deposited data

How the results depend on the processing

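Most values of the individually described genes of the family kept their direction and side of the threshold. Of 493 such values over the alternatives, 431 did so, 41 lost their call, 6 gained one and 15 changed sign. Most of these genes were chosen for large, called changes in these data, so much of this was set by the choice. Other genes, such as MRPS22, MRPS9 and MRPL9 near the threshold, were not counted. Centring on the spike-ins left 2 rises and 60 falls, with a median of -0.316 for large and -0.354 for small subunit genes. It turned MRPL17 to -0.053, MRPL27 to -0.0607, MRPS24 to -0.0608, MRPL40 to -0.077, MRPL12 to -0.164, MRPL23 to -0.102, MRPL35 to -0.155 and MRPL11 to -0.23 (adjusted p = 0.0176), by lowering every gene alike. It left 3.23% of the called genes higher, against 25% as deposited. The mean of all probe sets turned MRPL17 to -0.086 and MRPL11 to -0.011. Preferring probe sets without unspecific suffixes turned MRPL17 to -0.37 and MRPL4 to 0.25, and MRPS12 and MRPS18C, not called, to 0.0365 and 0.0366, by reading another probe set. It left MRPS25 at 0.04, not called. A fold of 1.2 (limma treat) left 2 rises and 7 falls among the 76 genes, beside 13.5% of all genes called in either direction. A threshold of 0.01 left 5 rises and 20 falls, beside 25.6% of all genes called.

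The medians also moved, and the cause was not tested. For large subunit genes the median was -0.0821 with a common median, -0.049 after quantile normalisation and -0.0856 with the mean of probe sets. For small subunit genes these were -0.121, -0.0802 and -0.0541, and 0.0338 with unspecific suffixes last. The large minus small difference was -0.0315 with the mean of probe sets, -0.0943 with unspecific suffixes last and 0.000688 by structures. The class difference was -0.135 after quantile normalisation and -0.209 with unspecific suffixes last.

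Leaving out 1 array at a time gave 5 to 8 rises and 20 to 25 falls, with 5 rises without DMSO replicate 2. The share of all genes called was then between 28.6% and 33.8%. The median ranged from -0.0778 to -0.0555 for large and from -0.117 to -0.0736 for small subunit genes, their difference from 0.00704 to 0.0611, and the class difference from -0.197 to -0.153. MRPL11, not called, ranged from -0.0011 (without MI-389 replicate 3) to 0.0379. MRPL17 lost its call without DMSO replicate 2, MRPS24 without DMSO replicate 1 or 2, and MRPL40 without any array except MI-389 replicate 2. MRPL27 lost it without any array except MI-389 replicate 3. With the replicate number as a block 6 genes rose and 21 fell, all 27 also called without it, beside 31.4% of all genes called. MRPL27, MRPS24 and MRPL40 lost their calls there (adjusted p = 0.0736, 0.0502 and 0.0626). Samples of one number did not deviate together (correlations -0.182, 0.0258 and -0.112), so the numbers were not taken as pairs. With 3 arrays a group, differences near 0.2 stand at the limit of what can be called, and RMA values understate changes of dim probe sets.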

Other observations

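Several of the genes start close to another gene on the opposite strand. Within 1000 bases, 27 genes had 28 such neighbours, and 21 of these pairs had a value for the neighbour, with MRPL46 and MRPS11 counted from both sides. Both genes fell in 3 pairs: MRPS27 (-0.47) with PTCD2 (-0.23, mean level 3.91), MRPS18B (-0.27) with PPP1R10 (-0.33) and MRPL54 (-0.23) with APBA3 (-0.30). Both rose in 1 pair, MRPL27 (0.19) with EME1 (0.32), whose starts lie 45 bases apart. MRPL37 fell (-0.36) and CYB5RL rose (0.25), with a mean level of 3.82 for CYB5RL. In 5 pairs the gene of the family alone was called, as for MRPS7 (0.40) beside GGA3 (0.07). These include the antisense transcript MRPL20-AS1 (-0.28) beside CCNL2 (0.03). In 5 others the neighbour alone was called, as for MRPL51 (0.12) beside NCAPD2 (0.49), and in 6 neither was. These pairs were chosen for mention after their values were seen. Of all genes 34.1% were called, and 57.8% of those at or above the nonspecific level. No share was taken over other pairs of neighbouring genes, so the counts of pairs have no background beside them.

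Probe sets annotated to 2 genes were left out of the comparisons. The one shared by MRPL45P2 and MRPL45 fell by 0.52 (limma adjusted p = 2.42e-04), and the one shared by MRPL53 and CCDC142, the one reading of MRPL53 here, fell by 0.26 (adjusted p = 0.00571). The one shared by ZNF713 and MRPS17 rose by 0.32 (adjusted p = 0.00243), while MRPS17 itself differed by 0.07 on its own probe set. Those shared by MRPS28 and TPD52 (-0.03) and by DNAJC9 and MRPS16 (0.04) were not called.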
